A study of Mus musculus with 8 samples.

Results

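Fibro-adipogenic progenitors are the resident mesenchymal cells of skeletal muscle, and the transcripts that identify them were compared in gastrocnemius of arthritic mice with and without dipyridamole. The set holds 10 genes of the 21833 in the tables, found by symbol: Pdgfra, Pi16, Dpp4, Ly6a, Cd34, Dpt, Clec3b, Gsn, Smoc2 and Tcf4. They were listed as identity genes that do not encode matrix proteins, with the question of whether a gain of matrix transcripts comes with more progenitor RNA. All 10 were detected in all 8 libraries, with 22 to 59226 reads each, and all 10 passed the filter on low counts. By function the list is looser than its label: dermatopontin, the product of Dpt, is itself a matrix protein, and Smoc2 encodes a secreted protein that associates with matrix.

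Bulk poly(A) RNA sequencing covered 8 male C57BL/6J mice of 12 weeks. Every mouse, controls included, received 100 µL of pooled serum from K/BxN mice on day 0 and on day 2, by the intraperitoneal route; such serum carries antibodies that cause joint inflammation. Mice called RA (n = 4) had serum alone, and the RA+Dipy group (n = 4) also had dipyridamole, a blocker of nucleoside transport and of phosphodiesterases, at 25 mg/kg daily from day 0. Muscle was collected on day 16. The genotype label reads K/BxN for all samples, although the design text describes wild-type recipients of serum, and the treatment protocol names dipyridamole for RA samples too, so groups were taken from the sample titles. Muscle of non-arthritic mice was not analysed here, and the vehicle of the RA mice is not named in the labels or design text.

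Fibro-adipogenic progenitors lie in the interstitium between fibres and carry the PDGF receptor encoded by Pdgfra. After injury they multiply, signal to muscle stem cells and lay down temporary matrix; when they persist they can become matrix-producing fibroblasts or fat cells. In mouse tissues a Pi16+ and Dpp4+ fraction is found around vessels and in fascia, and is regarded as a less specialised reserve. Several identity genes are shared with other cells: Cd34 and Ly6a with endothelium, Dpp4 with lymphocytes, and Gsn, which encodes the actin-severing protein gelsolin, with many cell types. In whole muscle, fewer cells of a type and less RNA per cell cannot be told apart.

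The symbol Tcf4 needs care. In the tables it names the basic helix-loop-helix factor E2-2, which binds DNA letters of the form CANNTG. The protein called TCF4 in work on muscle connective tissue is the product of a different gene, Tcf7l2, a Wnt pathway factor that binds letters such as CTTTGA. Tcf7l2 was therefore measured beside the 10 genes. Since Tcf4 and the other 9 genes are read as 1 set, the 250 bases before the RefSeq start of 2 of them are shown with each CANNTG in capitals: the receptor gene, and the gene with the smallest p of the 10. The Pdgfra window is chr5:75152001-75152250 and the Dpt window chr1:164796413-164796662, both on the plus strand of GRCm38.p6.
Pdgfra: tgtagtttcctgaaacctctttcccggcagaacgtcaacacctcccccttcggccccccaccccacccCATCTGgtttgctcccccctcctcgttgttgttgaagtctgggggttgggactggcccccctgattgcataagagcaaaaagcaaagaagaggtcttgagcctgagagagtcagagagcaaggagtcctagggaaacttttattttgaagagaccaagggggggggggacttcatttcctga
Dpt: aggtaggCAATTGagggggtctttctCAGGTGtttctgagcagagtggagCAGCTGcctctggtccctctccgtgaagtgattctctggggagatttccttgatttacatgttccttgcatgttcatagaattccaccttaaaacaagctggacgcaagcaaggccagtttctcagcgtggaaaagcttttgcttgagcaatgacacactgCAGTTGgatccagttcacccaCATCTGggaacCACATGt
The Dpt window holds 6 such matches and the Pdgfra window 1, counting both strands. The windows available for other identity genes hold 0 (Cd34 and Pi16), 1 (Dpp4) and 1, 2 and 2 (Gsn). Of 32851 windows of this length in the RefSeq table, 66.2% hold CANNTG and 13.8% hold CTTTGA, which is in 0 of the 8 windows available for 6 of the 10 genes. The match is a description of letters and no binding was measured.

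Libraries held 16.4 to 50.6 M (mega) counts. Levels are in CPM, the count per mega count of the library after TMM scaling, and 3 counts, the upper limit for a count of 0, correspond to 0.0591 to 0.254 CPM. Abundant fibre transcripts were present throughout: Acta1, skeletal actin, ranged from 19064 to 41957 CPM over the 8 libraries. A single library in each group stood apart. Over 4757 genes with a mean of at least 20 CPM, the spread of deviations from each gene's median (log2) reached 1.20 for RA replicate 4 and 0.81 for RA+Dipy replicate 1, while the other 6 libraries lay at 0.17 to 0.35. The 10 identity genes alone gave 1.01 and 0.45 for this pair, with 0.14 to 0.33 for the others. Values without these 2 libraries stand beside the results they move, and their part in the results was not tested beyond that.

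None of the 10 identity genes differed between RA+Dipy and RA by edgeR's quasi-likelihood test (smallest adjusted p = 0.882), and their values overlapped between the groups in all 10 cases. In the background, 0% of 12755 genes tested were called and 2.72% had groups that did not overlap (1.46% higher and 1.26% lower in RA+Dipy). Of the 10, 7 had a positive log2 fold change (RA+Dipy over RA) and 3 a negative one, with a median of 0.07; over all genes tested 52.2% were positive and the median was 0.02. Of the 10, 0 had an unadjusted p under 0.05, against 3.83% of all genes (1.68% higher and 2.15% lower). Without RA replicate 4 and RA+Dipy replicate 1 the median of the 10 was 0.14, again with 7 positive, and 1 gene, Dpt, had an unadjusted p under 0.05, where the background was 11.4%; there, 51.3% of genes were positive. With limma-voom and library weights 138 genes were called (1.08% of those tested, 0.894% higher in RA+Dipy), 0 of them among the 10 (smallest adjusted p of the 10 = 0.0861, Dpt).

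**Figure D1:**
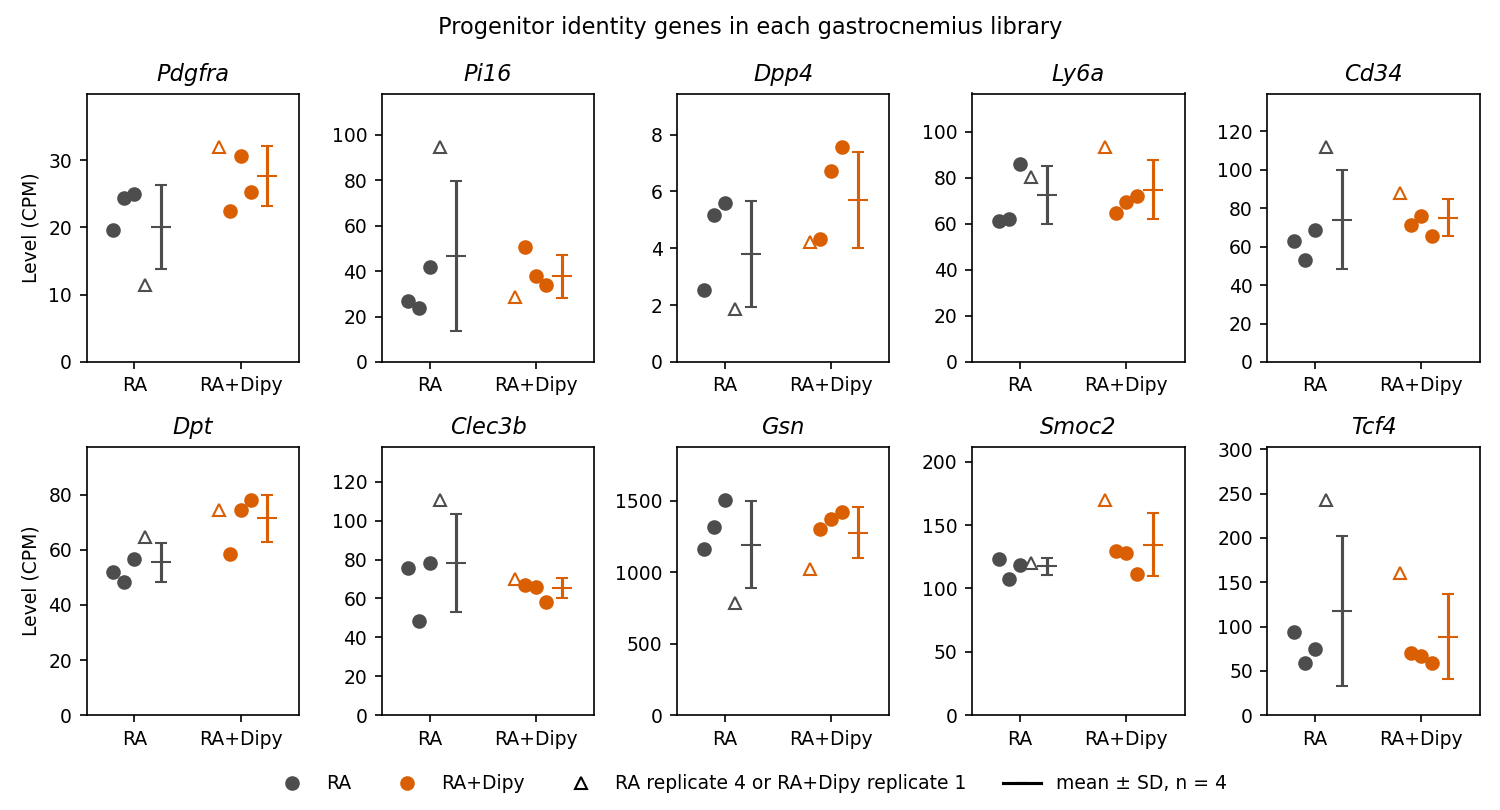
Levels of the 10 identity genes in CPM (vertical axes, each from 0) in the 4 RA and 4 RA+Dipy libraries; open triangles mark RA replicate 4 and RA+Dipy replicate 1, and bars show the mean ± SD. The groups overlap in every panel, and RA replicate 4 is the highest RA library for Pi16, Cd34, Dpt, Clec3b and Tcf4 and the lowest for Pdgfra, Dpp4 and Gsn.

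Pdgfra (chr5:75152292-75198215, plus strand, GRCm38) encodes the receptor tyrosine kinase that defines these cells. Its level was 19.7, 24.3, 25.0 and 11.4 CPM in RA replicates 1 to 4, and 31.9, 22.4, 30.7 and 25.3 CPM in RA+Dipy replicates 1 to 4. The RA+Dipy libraries were mostly higher, but RA+Dipy replicate 2 lay below RA replicates 2 and 3, and RA replicate 4 was the lowest of the 8. The means were 20.1 ± 6.26 and 27.6 ± 4.47 CPM (SD, n = 4 each), a log2 fold change of 0.45 (SE 0.28, 95% confidence interval −0.18 to 1.08; edgeR adjusted p = 0.882). Without the 2 libraries that stood apart the log2 fold change was 0.20 (SE 0.16). The interval includes no change and reaches more than a doubling. A gain of Pdgfra RNA was therefore not called, but a doubling is not excluded by these libraries.

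Pi16, which encodes a secreted peptidase inhibitor-like protein, and Dpp4, a membrane dipeptidase, mark the perivascular fraction. Pi16 stood at 26.8, 23.7, 41.6 and 94.6 CPM in RA and at 28.4, 50.6, 37.9 and 33.8 CPM in RA+Dipy, in replicate order. RA replicate 4 held more than any other library, and the remaining 7 were interleaved. The log2 fold change was −0.31 (SE 0.43) with all 8 libraries, 0.30 without RA replicate 4 and 0.42 (SE 0.22) without both libraries, so the sign was set by that library. Dpp4 was the scarcest of the 10, at 2.54, 5.16, 5.58 and 1.86 CPM in RA and 4.22, 4.32, 6.74 and 7.56 CPM in RA+Dipy. Its 2 highest libraries were RA+Dipy replicates 3 and 4, and its 2 lowest RA replicates 1 and 4. The log2 fold change was 0.58 (SE 0.38, interval −0.27 to 1.44; edgeR adjusted p = 0.882), and 0.51 without both libraries. Both perivascular genes thus had positive estimates without the 2 libraries, neither past the threshold (adjusted p = 0.459 for Pi16 and 0.493 for Dpp4 in edgeR).

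Ly6a encodes Sca-1, a surface antigen used to sort these progenitors, and Cd34 a sialomucin that is also on endothelial cells. Ly6a ran from 61.4 to 86.0 CPM in RA and from 64.7 to 93.3 CPM in RA+Dipy, so the ranges were nearly the same. Its means were 72.5 ± 12.5 and 74.9 ± 12.6 CPM, with a log2 fold change of 0.05 (SE 0.24, interval −0.48 to 0.57). Of the 100-nt windows of Ly6a transcripts, 1.45% also occur in Ly6c1, so few of its reads could be split between the 2 genes. Cd34 was 63.0, 53.2, 68.6 and 112 CPM in RA and 87.8, 71.5, 76.0 and 65.4 CPM in RA+Dipy. Among the RA libraries replicate 4 was the highest, and among the RA+Dipy libraries replicate 1 was. The log2 fold change of Cd34 was 0.02 (SE 0.28, interval −0.59 to 0.63), and 0.21 without both libraries.

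Dpt (chr1:164796644-164824266, plus strand, GRCm38), which encodes dermatopontin, a small protein that binds decorin and collagen, had the smallest p of the 10. It stood at 51.8, 48.5, 56.8 and 64.7 CPM in RA and at 74.4, 58.6, 74.5 and 77.9 CPM in RA+Dipy. The single crossing was between RA+Dipy replicate 2 and RA replicate 4; every other RA+Dipy library lay above every RA library. The means were 55.5 ± 7.08 and 71.3 ± 8.63 CPM, with a log2 fold change of 0.36 (SE 0.22, interval −0.12 to 0.85; edgeR adjusted p = 0.882). Without the 2 libraries it was 0.44 (SE 0.15, unadjusted p = 0.0148, edgeR adjusted p = 0.418). Ranked by p in the fit of 8 libraries, Dpt was number 1714 of 12755 genes, and 13.4% of genes had a smaller p.

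Clec3b encodes tetranectin, a plasminogen-binding C-type lectin. Its levels were 75.7, 48.4, 78.4 and 110 CPM in RA and 70.1, 67.2, 65.9 and 58.3 CPM in RA+Dipy. The 4 RA+Dipy values lay inside the RA range, and RA replicates 2 and 4 were the extremes. The log2 fold change was −0.26 (SE 0.27), and −0.07 without both libraries. Smoc2, which encodes a secreted calcium-binding protein, was flat in RA at 108 to 123 CPM and ran from 111 to 169 CPM in RA+Dipy. The highest value was that of RA+Dipy replicate 1, and the log2 fold change was 0.20 (SE 0.23) with it and 0.08 without both libraries.

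Gsn was the most abundant of the 10, at 1167, 1316, 1503 and 784 CPM in RA and 1021, 1304, 1370 and 1419 CPM in RA+Dipy. The lowest value in each group was in the library that stood apart, RA replicate 4 and RA+Dipy replicate 1. Its log2 fold change was 0.10 (SE 0.29, interval −0.55 to 0.75), and −0.04 without RA replicate 4. Gsn made up 48.4% to 75.3% of the summed CPM of the 10 genes, so a sum over the set mostly follows gelsolin. Summed over the other 9 genes, the level was 518, 432, 556 and 837 CPM in RA and 719, 539, 555 and 510 CPM in RA+Dipy. The 2 highest sums were again those of RA replicate 4 and RA+Dipy replicate 1; the other 3 RA+Dipy sums fell between 510 and 555 CPM, within the span of RA replicates 1 to 3.

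Tcf4 was 93.3, 58.8, 74.9 and 242 CPM in RA and 160, 69.6, 66.3 and 58.9 CPM in RA+Dipy. The 2 libraries that stood apart held the 2 highest values, and the other 6 lay between 58.8 and 93.3 CPM. The log2 fold change was −0.40 (SE 0.49), 0.25 without RA replicate 4 and −0.21 without both libraries. Tcf7l2, which encodes the connective tissue factor that shares the protein name, followed the same libraries: 9.06, 6.09, 7.69 and 42.6 CPM in RA and 21.2, 7.57, 5.89 and 5.88 CPM in RA+Dipy. Its log2 fold change was −0.69 (SE 0.67), 0.42 without RA replicate 4 and −0.24 without both libraries (edgeR adjusted p = 0.596). Neither gene passed the threshold in these fits, and the sign of both turned with RA replicate 4.

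**Figure D2:**
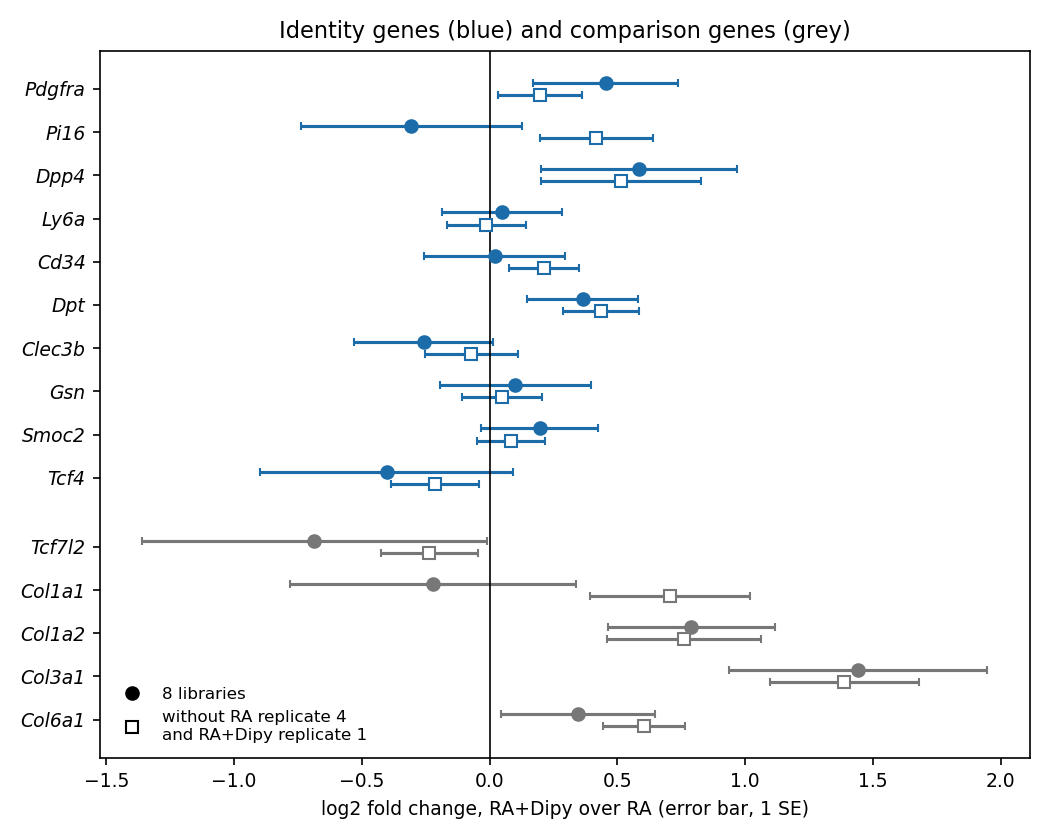
Log2 fold change of RA+Dipy over RA with 1 SE (horizontal axis) for the 10 identity genes in blue and for Tcf7l2 and 4 collagen genes in grey; filled circles use 8 libraries, open squares leave out RA replicate 4 and RA+Dipy replicate 1. The 10 identity genes lie between −0.40 and 0.58 with 8 libraries, while Col3a1 stands at 1.44; Pi16, Ly6a (0.05 and −0.01) and Col1a1 differ in sign between the 2 fits.

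Levels can be compared between genes once divided by exon length (CPM per kb of GENCODE vM21 exons). On that scale the RA means were 378 ± 96.7 for Gsn, 78.8 ± 25.6 for Clec3b, 60.1 ± 10.4 for Ly6a and 32.2 ± 4.11 for Dpt (SD, n = 4). Below them were Smoc2 at 16.9 ± 0.990, Cd34 at 10.2 ± 3.55, Pi16 at 7.34 ± 5.16, Tcf4 at 4.28 ± 3.08, Pdgfra at 2.01 ± 0.624 and Dpp4 at 0.599 ± 0.295 CPM per kb. Neighbours in this order that differed by less than the larger of their SDs were Clec3b and Ly6a, Cd34 and Pi16, Pi16 and Tcf4, and Tcf4 and Pdgfra. The order in RA+Dipy was the same, from 405 ± 56.3 for Gsn to 0.903 ± 0.268 for Dpp4. The defining receptor is therefore near the bottom of the set per length, and in RA replicate 4 its level rests on 135 reads.

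The 10 genes did not vary together across libraries. In RA replicate 4, Tcf4 was 1.74 and Pi16 1.40 log2 units above the median of the 8 libraries, whereas the values were −1.31 for Dpp4, −1.11 for Pdgfra and −0.74 for Gsn. RA+Dipy replicate 1 was high for Tcf4 (1.15 log2 units), Smoc2 (0.48), Ly6a (0.40) and Pdgfra (0.37) and low for Gsn (−0.36) and Pi16 (−0.33). In RA replicate 2, 8 of the 10 genes were under their median, down to −0.59 for Pi16. In the 3 other RA+Dipy libraries the deviations ran from −0.29 to 0.67.

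**Figure D3:**
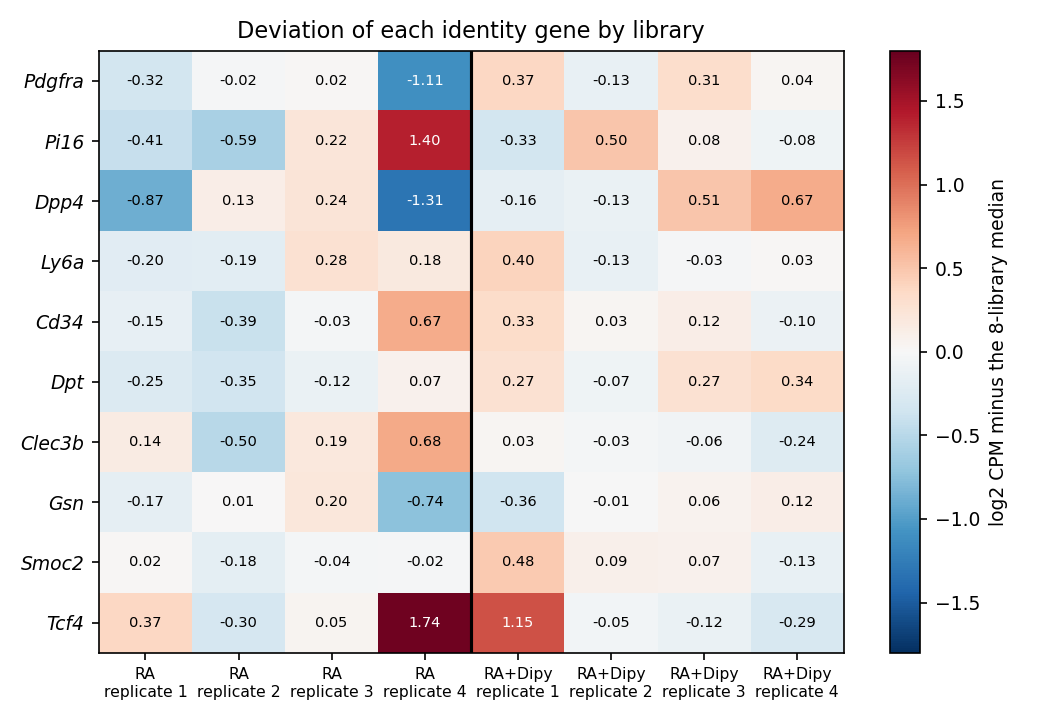
Deviation of each identity gene from its median over the 8 libraries, in log2 CPM (colour and printed value; rows are genes, columns are libraries, with RA to the left of the line). The largest values, positive and negative, are in the RA replicate 4 column, from 1.74 for Tcf4 to −1.31 for Dpp4.

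Across the 8 libraries the Pearson r with Pdgfra was 0.81 for Dpp4 and 0.68 for Gsn, and −0.72 for Pi16 and −0.70 for Clec3b. These values describe log2 CPM across libraries that differed in depth (16.4 to 50.6 M counts) and in TMM factor (0.708 to 1.17). Such differences between libraries can enter r. Over the 6 libraries left without RA replicate 4 and RA+Dipy replicate 1, r was 0.86 for Dpp4 and 0.67 for Gsn but 0.24 for Pi16 and −0.24 for Clec3b. Dpp4 and Gsn thus had the highest r with Pdgfra of the members in both sets of libraries. Tcf4 had a negative r that stayed, at −0.58 over 8 libraries and −0.62 over 6, and Tcf7l2 had −0.62 and −0.80. Over all 12754 other genes tested, the 5 most like Pdgfra over 8 libraries were Ppic (r = 0.987), Zfp207 (0.987), Poglut3 (0.982), Vcan (0.982) and Emp1 (0.981). Vcan encodes versican, a matrix proteoglycan, Ppic a cyclophilin of the secretory pathway and Emp1 a membrane protein. Of these 5, only Emp1 was also among the 10 most like Pdgfra over the 6 libraries (r = 0.987).

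Matrix transcripts were set beside the identity genes, since the question is whether both gained. Of 25 fibroblast matrix genes, 19 had a positive log2 fold change, against 52.2% of all genes tested, and the median was 0.57, against 0.07 for the identity genes. By edgeR none of the 25 was called, and 9 had an unadjusted p under 0.05 in the positive direction, where the background was 1.68%; earlier results of these data already showed this direction. Without the 2 libraries that stood apart 24 of the 25 were positive (median 0.60, against 51.3% of genes), and 17 had an unadjusted p under 0.05, where the background was 5.96%. With limma-voom and library weights 7 of the 25 were called, all higher in RA+Dipy, where the background was 0.894%. They were Col3a1 (adjusted p = 0.0309), Lum (adjusted p = 0.0392) and, named after their values were seen, Col5a1, Col5a2, Col6a3, Col14a1 and Col15a1. Col5a1 in RA+Dipy replicate 1 (35.8 CPM) lay below RA replicates 1, 2 and 3 (39.3, 37.6 and 37.1 CPM). So did Col15a1 (26.3 CPM, against 33.4, 36.2 and 35.1 CPM). Col14a1 crossed narrowly, while Col5a2 and Col6a3 did not overlap between the groups. Col3a1, the fibrillar collagen of pliable tissue, was 132, 215, 165 and 45.5 CPM in RA and 186, 270, 609 and 448 CPM in RA+Dipy. The RA+Dipy values were higher except that replicate 1 lay below RA replicate 2, and the log2 fold change was 1.44 (SE 0.51; edgeR adjusted p = 0.882). Postn, which encodes the matrix protein periostin, did not overlap between the groups, at 4.82 to 13.1 CPM in RA and 14.6 to 56.0 CPM in RA+Dipy (log2 fold change 1.83, SE 0.44; edgeR adjusted p = 0.882). Of all genes tested, 1.46% were higher in RA+Dipy without overlap.

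**Figure D4:**
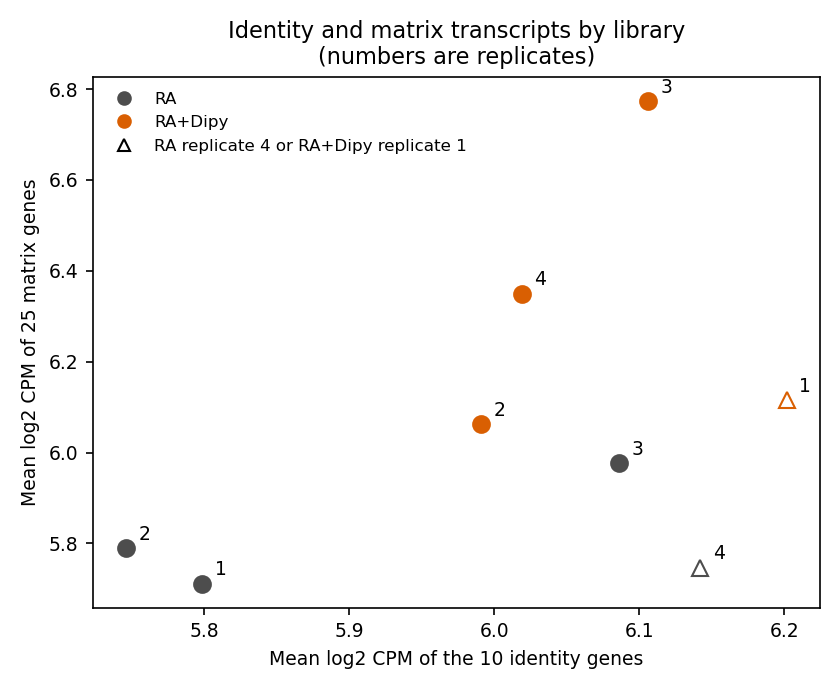
Mean log2 CPM of the 25 matrix genes (vertical axis) against that of the 10 identity genes (horizontal axis), 1 point per library, numbered by replicate; open triangles are RA replicate 4 and RA+Dipy replicate 1. RA+Dipy points lie higher on the matrix axis (6.06 to 6.77) than RA points (5.71 to 5.98), whereas RA replicates 3 and 4 lie within the RA+Dipy span on the identity axis (5.99 to 6.20).

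Library by library, the mean log2 CPM of the 10 identity genes was 5.80, 5.75, 6.09 and 6.14 in RA and 6.20, 5.99, 6.11 and 6.02 in RA+Dipy. RA replicates 1 and 2 were the lowest, and the others were mixed. The same mean over the 25 matrix genes was 5.71, 5.79, 5.98 and 5.75 in RA and 6.12, 6.06, 6.77 and 6.35 in RA+Dipy, with no overlap. The summed matrix level did overlap, at 2570, 2626, 3408 and 4308 CPM in RA and 4551, 3287, 5849 and 3939 CPM in RA+Dipy, since RA replicate 4 lay above RA+Dipy replicates 2 and 4. RA+Dipy replicate 3 had the highest matrix mean of the 8, at an identity mean close to those of RA replicates 3 and 4.

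The gain of a collagen transcript relative to Pdgfra was then tested directly, as the log2 ratio of their counts within each library, which does not depend on library scaling. The Col3a1 ratio was 2.74, 3.14, 2.72 and 1.99 in RA and 2.55, 3.59, 4.31 and 4.15 in RA+Dipy. RA+Dipy replicates 2, 3 and 4 lay above all RA libraries, and replicate 1 below 3 of them. The means were 2.65 ± 0.48 and 3.65 ± 0.80 (SD, n = 4 each), a difference of 1.00, with a two-sided exact permutation p of 0.114 (0.457 after Benjamini-Hochberg adjustment over the 4 ratios). Without RA+Dipy replicate 1 the difference was 1.37 (exact permutation p = 0.0286, the smallest the design allows; adjusted 0.114).

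For Col1a2, the second chain of collagen I, the difference in log2 ratio was 0.25 (exact permutation p = 0.457, adjusted 0.743), and 0.53 without both libraries. For Col1a1, the first chain, it was −0.42 (exact permutation p = 0.743, adjusted 0.743), and 0.46 without both. For Col6a1, a chain of the beaded-filament collagen VI, it was −0.25 (exact permutation p = 0.6, adjusted 0.743), and 0.40 without both. RA replicate 4 carried the highest Col1a1 ratio (7.32, against 3.64 to 5.06 elsewhere), and RA+Dipy replicate 1 the lowest Col6a1 ratio (0.77, against 1.69 to 2.95). No ratio passed the threshold after adjustment. The smallest exact permutation p that 4 against 4 libraries allow is 0.0286, which is 0.114 after adjustment for a single ratio out of 4, so this test could not have shown unequal movement of 1 collagen alone. Without the 2 libraries all 4 estimates were positive (smallest exact permutation p = 0.1, the lowest that 3 against 3 allows).

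**Figure D5:**
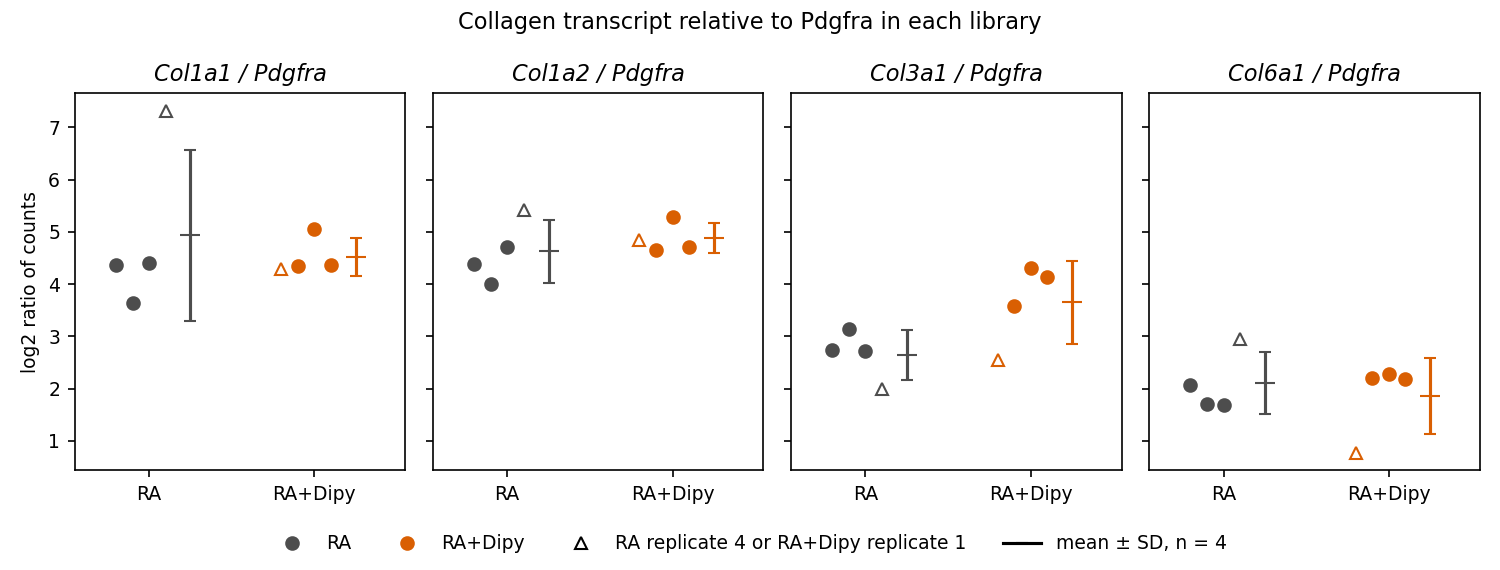
Log2 ratio of each of 4 collagen counts to the Pdgfra count (vertical axis) in RA and RA+Dipy libraries, with the mean ± SD; open triangles are RA replicate 4 and RA+Dipy replicate 1. The Col3a1 ratio is highest in RA+Dipy replicates 2 to 4 (3.59 to 4.31), and RA replicate 4 is far above the rest for Col1a1 (7.32).

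Other identity genes of these cells, 32 on a separate list, included 31 that were tested: 22 had a positive and 9 a negative log2 fold change (median 0.19, and 0.10 without both libraries), and 0 were called. The 4 with an unadjusted p under 0.05 were all higher in RA+Dipy, a share to be read against 1.68% of all genes. They were Sfrp4, a secreted Wnt antagonist (log2 fold change 1.31, SE 0.37), the homeobox factor Meox2 (0.65, SE 0.25), the surface peptidase Mme (0.80, SE 0.34, and 0.48 without RA+Dipy replicate 4) and, named after its values were seen, the ferritin receptor Scara5 (0.77, SE 0.33). Meox2 stood at 7.54, 10.9, 10.9 and 6.51 CPM in RA and 14.7, 11.8, 15.2 and 14.6 CPM in RA+Dipy, and Sfrp4 at 3.38 to 4.49 and 5.02 to 16.0 CPM. For these 2 of the 31 genes the groups did not overlap. Of all genes tested, 1.46% were higher in RA+Dipy without overlap. With library weights 0 of the 31 were called.

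Signals and fates of the progenitors were followed on 4 further lists, none with a gene called by edgeR. With limma-voom and library weights Fap (adjusted p = 0.0392) and Gdf10, a secreted TGF-beta family signal (adjusted p = 0.0309), were called. Both were higher in RA+Dipy, where the background was 0.894%. Gdf10 in RA+Dipy replicate 1 (7.59 CPM) lay below RA replicates 1, 2 and 4 (8.12, 10.1 and 11.2 CPM; edgeR adjusted p = 0.882). Of 12 PDGF and TGF-beta ligands and receptors, 7 were positive (median 0.13); Pdgfrb, the sister receptor carried by pericytes as well, had a log2 fold change of 0.13 (SE 0.23), with means of 37.2 ± 8.10 (RA) and 40.8 ± 1.89 CPM (RA+Dipy; SD, n = 4 each). Pdgfb, a ligand, did not overlap between the groups and was lower in RA+Dipy, at 35.6 to 51.1 and 16.2 to 35.4 CPM (log2 fold change −0.51, SE 0.28, and −0.31 without RA+Dipy replicate 1). The gap was narrow, 35.6 against 35.4 CPM, and 1.26% of all genes tested were lower in RA+Dipy without overlap. Among 12 signals that these cells secrete, 11 were tested and 7 were positive (median 0.24, and 0.07 without both libraries). Grem1, a secreted BMP antagonist, was lower without overlap, at 0.748 to 2.30 and 0.480 to 0.577 CPM, where the background was again 1.26%. It rests on 8 to 59 reads per library. Of 9 tested genes of activated fibroblasts, 4 were positive (median −0.08), and without both libraries 6 were (median 0.29). By edgeR 3 of the 9, Postn, Fap and Cthrc1, were higher with an unadjusted p under 0.05, where the background was 1.68%. Cthrc1 rests on 2 to 123 reads per library (log2 fold change 2.58, SE 0.86, and 1.22 without RA+Dipy replicate 3). Fap, a surface protease, did not overlap at 4.74 to 5.66 and 6.50 to 9.0 CPM (log2 fold change 0.70, SE 0.22). In that direction the background without overlap was 1.46%. Of 12 genes of the fat cell fate, 8 were positive (median 0.61), and without both libraries 9 were (median 1.24), with Pparg, the master regulator of that fate, at 2.80, 2.71, 3.20 and 0.761 CPM in RA and 1.78, 3.8, 5.04 and 10.8 CPM in RA+Dipy (log2 fold change 1.15, and 0.56 without RA+Dipy replicate 4); the highest value, in RA+Dipy replicate 4, came with 101 CPM of Adipoq, the fat cell hormone adiponectin, against 19.9 to 22.9 CPM in the other RA+Dipy libraries.

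Markers of cells that share identity genes were measured in the same fit. The 15 endothelial markers had 8 positive estimates and a median of 0.01. Their summed levels were 535 to 784 CPM in RA and 543 to 615 CPM in RA+Dipy. The junction cadherin Cdh5 ran from 15.7 to 65.1 and from 20.5 to 76.4 CPM. Without RA replicate 4 and RA+Dipy replicate 1, 8 were positive and 7 negative (median 0.04). There 3 were higher and 0 lower with an unadjusted p under 0.05 in edgeR, where the background for higher genes was 5.96%. Kdr (estimate 0.51) and Cdh5 (0.30) were among these 3, and 0 of the 15 were called. With all 8 libraries 0 were higher and 1 lower at that unadjusted threshold. The 11 pericyte and smooth muscle markers had 5 positive estimates (median −0.01), and without both libraries 8 (median 0.14; with all 8, summed 658 to 788 and 631 to 766 CPM). The 13 macrophage markers had 12 positive (median 0.65; summed 136 to 328 and 187 to 369 CPM). By edgeR 5 of the 13 had an unadjusted p under 0.05, all higher in RA+Dipy, where the background was 1.68%. Without both libraries all 13 were positive (median 0.69). In that fit 9 were higher with an unadjusted p under 0.05, where the background was 5.96%. Of the 10 lymphocyte and leukocyte markers only Ptprc and Cd3e passed the low-count filter, and the summed level of the 10 was 3.98 to 5.16 CPM in RA and 4.87 to 7.24 CPM in RA+Dipy. The tenocyte markers had 5 of 8 positive (median 0.28, and 0.13 without both libraries; summed 507 to 1150 and 669 to 1142 CPM), and none of these lists held a gene at 0 in all libraries or a gene called by edgeR. With limma-voom and library weights the macrophage genes Cd68 and Fcgr1, named after their values were seen, were called as higher in RA+Dipy. The background was 0.894%, and 0 genes of the other 4 lists were called. By edgeR both had an adjusted p of 0.882. Fcgr1 was highest in RA replicate 4 (3.72 CPM, against 1.66 to 3.68 CPM in RA+Dipy). Cd68 in RA+Dipy replicate 1 (4.09 CPM) lay below RA replicates 1, 2 and 4 (4.18, 4.27 and 8.87 CPM). The part of these cell types in the identity gene values was not tested.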

How the data were processed

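The authors deposited 1 table of raw counts for each of the 8 libraries, giving reads per protein-coding gene symbol with no normalization. Reads were 100 nt and single-end per the labels' protocols; fastp 0.20.0 trimmed them, STAR 2.7.3a placed them on GRCm38.p6 and HTSeq counted them with strand ignored, per the design text. The gene annotation behind the counts is not named in the labels or design text. Reads of a gene and of an antisense partner cannot be told apart: 4 of the 10 genes share exon bases with another gene in GENCODE vM21 (Pdgfra 6.50%, Dpp4 3.67%, Pi16 3.49% and Cd34 2.03% of exon bases). The labels name a TruSeq kit and the design text a NEBNext kit.

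Counts of 24 symbols on more than 1 line were summed (21833 symbols). filterByExpr with a minimum count of 10 kept 12755 genes. Groups were compared with edgeR 4.0.16 (TMM, robust quasi-likelihood test, group as sole term; R 4.3.3), two-sided, with Benjamini-Hochberg adjustment over all genes tested and a threshold of 0.05. Levels are CPM with TMM factors; log2 CPM used a prior count of 2. Ratios were tested by exact permutation over 70 assignments. No pair of libraries in a group agreed within sampling noise (smallest chi-square per degree of freedom 29.3). Of the tests, only the edgeR test was checked on simulated data.

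The 10 genes and the 14 other lists were chosen with earlier results of these data known. Named genes are the 10, 15 fixed genes, the 3 with the smallest p of each other list and the 5 most like Pdgfra. Alternatives were DESeq2 1.42.0, limma-voom 3.58.1 with and without library weights, 2 other scalings, 2 other filters, the replicate number as a block and libraries left out. Limits from counts of 0 cover counting error only. P-values measure the spread between these mice.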

Additional observations from a re-analysis of the deposited data

Results flagged for a closer look

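Of 138 groups of 4 libraries checked, 14 held a library far from the other 3 by Dixon's test at the 95% level; chance alone flags about 1 group in 20. By library, 7 of the 14 were RA+Dipy replicate 1, 3 RA replicate 4, 2 RA+Dipy replicate 4, and 1 each RA+Dipy replicates 2 and 3. Among the 10 identity genes only Tcf4 was in this set, with 160 CPM in RA+Dipy replicate 1 against a next value of 69.6. Tcf7l2 stood far out in both groups, at 42.6 CPM in RA replicate 4 (next 9.06) and 21.2 CPM in RA+Dipy replicate 1 (next 7.57).

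Ratios to Pdgfra gave a pair of far values in RA+Dipy: the Col1a1 log2 ratio was 5.06 in replicate 3 (next 4.37) and the Col6a1 log2 ratio 0.77 in replicate 1 (next 2.19). Col1a1 itself reached 1825 CPM in RA replicate 4 (next 530). In the same library Kcnj8, a pericyte channel gene, was low at 6.42 CPM (next 16.9). RA+Dipy replicate 1 was low for the endothelial genes Cdh5 (20.5 CPM, next 68.2) and Kdr (23.4 CPM, next 52.3) and for the satellite cell factor Pax7 (0.990 CPM, next 1.92), and high for the cytokine gene Il15 (7.79 CPM, next 4.62). RA+Dipy replicate 4 was high for Adipoq (101 CPM, next 22.9) and low for the myelin gene Mbp (33.5 CPM, next 55.4). RA+Dipy replicate 2 was low for Fap (6.50 CPM, next 8.97).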

How the results depend on the processing

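The count of identity genes called was 0 under every alternative run. The count over all genes was 0 except with limma-voom and library weights (138). At an unadjusted p under 0.05 it was 488 in edgeR (3.83%), 740 in DESeq2 (5.9%) and 365 in limma-voom (2.86%). With library weights limma-voom gave 3608 genes at that threshold (28.3%), 2 of them among the 10 identity genes. That fit thus stood far from the other methods. The median log2 fold change of the 10 ran from 0.00 (0.0022, without RA+Dipy replicate 1) to 0.27 (without RA replicate 4) when 1 library was left out, and that of the matrix genes from 0.40 to 0.64. Upper-quartile factors moved the median of all genes from 0.02 to 0.08. Replicate numbers did not pair the samples (correlations of deviations −0.31, 0.19, 0.27 and −0.42); with the replicate block 0 genes were called, 165 had an unadjusted p under 0.05, and the median of the 10 was 0.10.

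Signs turned as follows (log2 fold change); the cause was not tested. With limma-voom and library weights Pi16 was 0.19, Ly6a −0.092, Col1a1 0.69 and Cspg4 0.32. Without both libraries that stood apart Pi16 was 0.42, Ly6a −0.012, Col1a1 0.71 and Cspg4 0.38, and the ratios to Pdgfra were 0.46 for Col1a1 and 0.40 for Col6a1. With the replicate block the Col1a1 log2 fold change was 0.15 and the Pecam1 log2 fold change −0.0173; with limma-voom they were 0.0464 and −0.0229. Leaving out 1 library in turn gave ranges of −0.52 to 0.30 for Pi16, −0.075 to 0.14 for Ly6a, −0.11 to 0.30 for Cd34, −0.043 to 0.23 for Gsn, −0.85 to 0.25 for Tcf4, −1.32 to 0.42 for Tcf7l2, −0.52 to 0.68 for Col1a1, −0.12 to 0.21 for Pecam1, −0.22 to 0.14 for Pax7 and −0.76 to 0.28 for Cspg4. For the ratios to Pdgfra the ranges were −0.85 to 0.38 (Col1a1), 0.04 to 0.52 (Col1a2), 0.78 to 1.37 (Col3a1) and −0.39 to 0.11 (Col6a1). Among the 10, depth limits Dpp4 most, with 22 to 189 reads per library.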

Other observations

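Cell types that lie beside the progenitors were measured on 3 more lists. Of 11 Schwann cell and nerve markers, 10 had a negative log2 fold change and 1 a positive one (median −0.66, and −0.46 without RA replicate 4 and RA+Dipy replicate 1), and 0 were called by edgeR. The 3 with an unadjusted p under 0.05 were all lower in RA+Dipy, where 2.15% of all genes were. Sox10, the glial lineage factor, had a log2 fold change of −1.04 and Mbp, which encodes myelin basic protein, of −0.98; without RA replicate 4 Mbp was −0.45, and without both libraries it was −0.51 and Sox10 −0.71. Of 8 tested satellite cell markers 3 were positive (median −0.11), and Pax7 had a log2 fold change of −0.11. Of 12 muscle fibre genes 3 were positive (median −0.13), with none called by edgeR. With limma-voom and library weights Sdc4, a syndecan on the satellite cell list, was called as lower in RA+Dipy (adjusted p = 0.0309). In that fit 1.08% of genes were called in either direction. By edgeR Sdc4 was not called (adjusted p = 0.882). Its level in RA+Dipy replicate 1, 53.3 CPM, lay above RA replicates 1, 2 and 3 (44.9, 29.9 and 42.1 CPM).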
